A study of Mus musculus with 21 samples.

Results

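The 81 genes described here are the nuclear genes for complexes I, III, IV and V of oxidative phosphorylation, measured in mice on chow (control) or on a diet low in methionine (MR, methionine-restricted). They were taken by gene symbol, from the name stems for NADH dehydrogenase subunits, ubiquinol-cytochrome c reductase, cytochrome c oxidase and mitochondrial ATP synthase, out of 16835 genes listed in any of 3 tables. Complex I gave 38 genes, complex III 9, complex IV 17 and complex V 17. Of these, 77 were listed for CD8+ T cells and 80 each for MC38 and BPD6 tumors. CD8+ T cells, the cytotoxic lymphocytes, came from the spleen and gave 3 control and 3 MR libraries. The tumors were of the murine colon cancer line MC38 (4 control, 4 MR) and the murine melanoma line BPD6 (4 control, 3 MR). The BPD6 columns carry the name GEMM6 and MR numbers 1, 2 and 4, where the labels have 1 to 3, so they were assigned to BPD6 by the name of their table. Strain, sex, age and length of feeding are not given by these sources, and nothing says whether replicates were separate animals, so p-values measure only the spread between these samples.

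The respiratory chain passes electrons from NADH through complex I, and from other donors, to complex III and then, by cytochrome c, to complex IV, where oxygen is reduced. Complexes I, III and IV pump protons across the inner mitochondrial membrane, and complex V, the ATP synthase, uses their return to make ATP. Core subunits carry the redox centers or the catalytic sites, and many small accessory subunits surround them. Subunits encoded in mitochondrial DNA are not part of this set. T cells draw on oxidative phosphorylation at rest and raise both respiration and glycolysis when activated.

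Sequencing depth was 15733775 to 24129563 estimated counts per library. The 7 CD8+ T cell markers summed to 4212 to 5051 CPM (counts scaled to each library's TMM-normalized total) in the CD8+ T cell libraries. The 6 markers of simple epithelium summed to only 4.55 to 80.7 CPM in MC38. In BPD6, the 3 listed of 7 melanocyte lineage markers summed to 16.7 to 28.6 CPM, and Mlana, Dct, Tyr and Tyrp1 are not in that table. These tumor samples are bulk material: fewer cells of a type and less RNA per cell cannot be told apart. In MC38, all 10 macrophage markers had a higher mean with MR (summed 612 to 1209 CPM in control and 777 to 2104 CPM in MR libraries). The same held for the 6 tested fat cell markers (9.14 to 103 and 28.2 to 486 CPM) and the 7 CD8+ T cell markers (15.3 to 26.6 and 15.5 to 70.8 CPM). Their part in the results was not tested.

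No member passed the test between diets in any of the 3 materials (edgeR quasi-likelihood test, Benjamini-Hochberg adjusted p under 0.05 over all genes of a table). In MC38 tumors, 73 of 79 tested members had a higher mean with MR, with a median log2 fold change of 0.34, against a median of 0.02 over all genes. In CD8+ T cells the median was -0.03 with 34 of 76 members higher, and in BPD6 tumors it was -0.06 with 15 of 79 higher. Members of all 4 complexes moved together from library to library, within a diet group as well as between groups. Cytosolic ribosomal protein genes shared the largest of these swings in CD8+ T cells and MC38. Short transcripts were higher with MR in MC38 among other genes too, and after a correction for transcript length the MC38 median was 0.14. It was 0.32 when each gene's shortest coding transcript gave the length, a setting that was not planned.

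**Figure D1:**
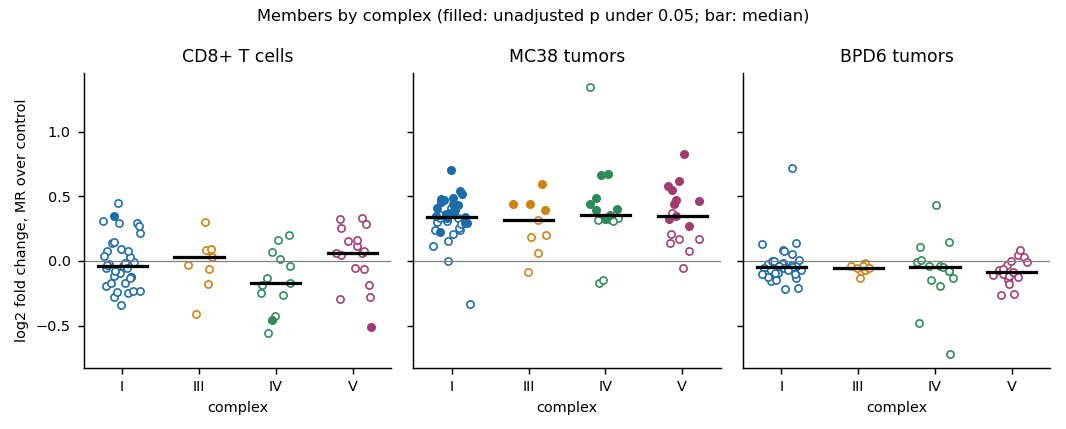
Log2 fold change of MR over control (y axis) for each tested member by complex (x axis) in the 3 materials; filled points have an unadjusted p under 0.05 and bars are medians. In MC38 all 4 medians lie between 0.32 and 0.36, while in CD8+ T cells and BPD6 they lie between -0.17 and 0.06.

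Control means of tested members ran from 0.737 to 591 CPM in CD8+ T cells, with a median of 61.8 CPM. In MC38 they ran from 0.651 to 1539 CPM (median 82.7 CPM) and in BPD6 from 0.615 to 1264 CPM (median 71.6 CPM). Members together took 0.541% to 0.762% of counts in CD8+ T cell libraries, 0.951% to 1.34% in MC38 and 0.757% to 0.992% in BPD6. The share was thus higher in every MC38 library than in any CD8+ T cell library.

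Per kilobase of transcript, Atp5b, the catalytic beta subunit of the ATP synthase F1 head, was the most abundant member in both tumors. Its control level was 803 ± 62.1 CPM per kb (SD, n = 4) in MC38 and 659 ± 46.8 CPM per kb (SD, n = 4) in BPD6. Cox6a1 and Cox4i1, broadly expressed subunits of complex IV, followed in both. The order was different in CD8+ T cells, where Uqcrh, the hinge protein of complex III, came first at 811 ± 172 CPM per kb (SD, n = 3). Next came Cox7a2l, a protein that joins complexes III and IV into supercomplexes, at 524 ± 56.7 CPM per kb, and Cox4i1 at 427 ± 53.1 CPM per kb, and the ranges of these 2 overlapped between libraries. These ranks cover the 58 (CD8+ T cells), 64 (MC38) and 56 (BPD6) members whose listed transcript is at most 2 times as long as the shortest coding transcript of the gene.

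Levels differed between materials most at these genes. Atp5b had 158, 137 and 176 CPM in the control libraries of CD8+ T cells, against 1396 to 1687 CPM in MC38 and 1137 to 1348 CPM in BPD6. Its mean in the tumors was 8.92 times that in CD8+ T cells. In the other direction, Uqcrh had 407, 373 and 551 CPM in CD8+ T cells against 78.0 to 99.9 CPM in MC38 and 84.0 to 126 CPM in BPD6, a ratio of 4.78. Neither gene's ranges overlapped between T cells and tumors, and its listed transcript is the same in the 3 tables. Of 56 members in all tables with 1 listed transcript, 28 were lower and 9 higher in every control CD8+ T cell library than in any control tumor library, with a median ratio of 0.673 to the mean of the tumors. The same counts and ratio were not computed over all genes. These values therefore cannot be read as particular to the members. Genes for the chain have many processed pseudogenes, and the counting of reads that match several places is not given, so levels between genes and materials are uncertain. The tables come from separate samples and material cannot be told apart from batch, so no test was made.

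Across the members, control levels on the log2(CPM + 1) scale correlated at r = 0.95 between the tumor models (78 genes), 0.70 between MC38 and CD8+ T cells and 0.75 between BPD6 and CD8+ T cells (76 genes each). These correlations are descriptions across genes that share libraries and transcript lengths.

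Within complex V, the balance of subunits separated the materials as well. The ratio of Atp5b to Atp5a1, the alpha subunit that alternates with it in the F1 head, was 0.445 to 0.488 in control CD8+ T cells, 2.26 to 2.79 in control MC38 and 1.44 to 1.62 in control BPD6. In MR CD8+ T cells it was 0.593, 0.585 and 0.513, above all control libraries, and the means were 0.469 ± 0.0220 (SD, n = 3) in control and 0.564 ± 0.0442 (SD, n = 3) in MR. In an exact two-sided permutation test this gave p = 0.10, the smallest that 3 against 3 libraries allow.

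The c ring of the ATP synthase turns in the membrane as protons pass, and its identical mature subunit is encoded by Atp5g1, Atp5g2 and Atp5g3, which differ in their import peptides. In CD8+ T cells, Atp5g3 gave 59.8%, 59.0% and 60.0% of the summed CPM of these genes in control libraries and 45.3%, 53.6% and 49.8% in MR libraries. Every MR library was below every control library, with means of 59.6% ± 0.514 (SD, n = 3) and 49.6% ± 4.13 (SD, n = 3). Atp5g2 took the larger part of the difference, with 27.5% ± 0.582 in control and 34.6% ± 2.16 in MR, and Atp5g1 had 12.9% ± 0.563 and 15.8% ± 2.202. Each share gave p = 0.10 in the exact two-sided permutation test. The same shares overlapped between diets for all 3 genes in both tumor models. For Atp5g1 in MC38 the control libraries had 32.8% to 34.8% and the MR libraries 29.6% to 33.2%, with p = 0.0571, the lowest of the tumor values (exact permutation test, two-sided). These shares and the F1 ratio were chosen after their values were seen, and over the 12 tests in the 3 materials the lowest adjusted p was 0.24.

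**Figure D2:**
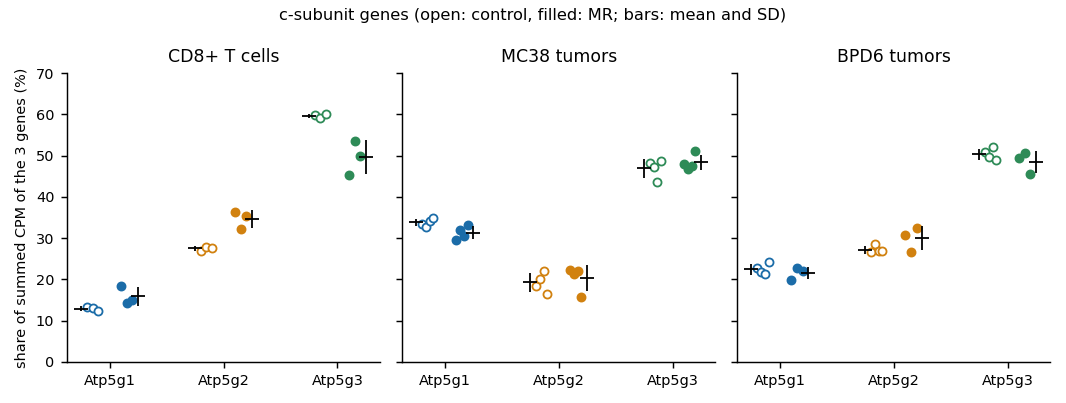
Share of each c-subunit gene in the summed CPM of the 3 genes (y axis, percent) by gene (x axis); open points are control and filled points MR libraries, and bars give mean and SD. In CD8+ T cells the MR libraries lie below the control libraries for Atp5g3 and above them for Atp5g2, with mean differences (MR minus control) of -10.04 and 7.11 percentage points.

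In MC38 tumors, 44 of 79 tested members had an unadjusted p under 0.05 in edgeR, against 14.1% of all 14034 genes tested, and all 44 had a higher mean with MR, against 7.3% of all genes. None passed after adjustment, where the background was 0% and the lowest adjusted p of a member was 0.250. DESeq2 called 9 members, all higher, against 2.82% of genes, and limma-voom called 0. In the authors' deposited table an adjusted p under 0.05 was given for 8 members, all higher, against 2.87% of genes with an adjusted p: Atp5k, Atp5mpl, Cox7b, Ndufa11, Ndufa3, Ndufa7, Uqcr11 and Uqcrh. Groups did not overlap for 19 members, all higher with MR, against 8.76% of all genes, and 73 members had a higher mean with MR against 53.6% of all genes. Apart from the adjusted edgeR and limma-voom counts of 0, the members' counts were above these backgrounds. The share of higher means also depended on transcript length. Among other genes it was 77.4% up to 600 nt, 80.7% from there to 1000 nt and 76.2% up to 2000 nt. Of the members in these length classes, 24 of 25, 28 of 30 and 17 of 19 were higher. Members share libraries and moved together, so they are not independent of each other. Leaving out control replicate 1 took the count of 44 to 22, leaving out control replicate 4 to 26 and leaving out MR replicate 1 to 27.

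In MC38 the size of the difference varied with the role of the subunit. The 5 small membrane subunits of the ATP synthase had the highest median log2 fold change, 0.58, and all 5 had an unadjusted p under 0.05. The 5 small subunits of complex III had a median of 0.44 (4 of 5). The 11 broadly expressed genes of complex IV, counted by name with Cox7a2l and without Ndufa4, had 0.39 (8 of 11). The 29 accessory subunits of complex I had 0.37 (19 of 29). All members of these groups had a higher mean with MR. The groups that hold the redox and catalytic subunits had lower medians: the 7 core subunits of complex I had a median of 0.21 (2 of 7), the 4 redox and core proteins of complex III 0.12 (0 of 4) and the 5 subunits of the F1 head 0.14 (1 of 5). The stalk subunits of the ATP synthase had a median of 0.31 (3 of 4) and the c-subunit genes 0.33 (1 of 3). The complex I core, complex III redox and core, and F1 head groups have longer transcripts, with median lengths of 1046, 1586 and 1166 nt against 371, 535, 645 and 704 nt in the small-subunit groups.

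Among complex I genes in MC38, Ndufa11, an accessory subunit of the membrane arm, had the lowest p. Its control libraries had 60.6, 63.1, 64.1 and 63.4 CPM and its MR libraries 107, 85.2, 75.9 and 82.5 CPM, with no overlap and a log2 fold change of 0.48 ± 0.11 (SE, edgeR adjusted p = 0.250). Ndufa3, another accessory subunit, had 26.9, 33.6, 30.6 and 28.0 CPM in control and 60.1, 58.6, 40.7 and 34.2 CPM in MR libraries, a log2 fold change of 0.70 ± 0.18. For both genes every MR library was above every control library, and MR replicates 1 and 2 of Ndufa3 were above MR replicates 3 and 4. By contrast Ndufs1, the largest iron-sulfur subunit of the electron input arm, had 101, 111, 114 and 106 CPM in control and 128, 107, 106 and 90.2 CPM in MR libraries, so the groups overlapped and the log2 fold change was -0.00 ± 0.11. Ndufv1, which binds NADH and the flavin, was at 0.16 ± 0.09, and Ndufab1, the acyl carrier protein that is also a subunit of complex I, at 0.25 ± 0.17. Ndufa4, named as a complex I gene but a subunit of complex IV, was at 0.34 ± 0.13.

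In complex III of MC38, Uqcrh had 78.0, 99.9, 82.2 and 91.6 CPM in control and 169, 133, 122 and 107 CPM in MR libraries. The groups did not overlap, and the log2 fold change was 0.59 ± 0.14 (SE, edgeR adjusted p = 0.255). Uqcr11, a small subunit of the complex, had 63.0, 70.1, 68.5 and 67.0 CPM in control and 106, 103, 79.0 and 76.7 CPM in MR libraries, a log2 fold change of 0.44 ± 0.12. Cyc1, the cytochrome c1 that hands electrons to cytochrome c, had 204, 233, 251 and 196 CPM in control and 250.1, 193, 216 and 175 CPM in MR libraries, with overlapping groups and a log2 fold change of -0.09 ± 0.13. Uqcrfs1, the Rieske iron-sulfur protein, and Uqcrc1, a core protein, were at 0.20 ± 0.16 and 0.18 ± 0.14.

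In complex IV of MC38, Cox7b, a small subunit, had 73.1, 83.2, 77.9 and 74.4 CPM in control and 129, 102, 98.5 and 89.2 CPM in MR libraries. The groups did not overlap and the log2 fold change was 0.44 ± 0.12 (SE, edgeR adjusted p = 0.255). Cox7a2, the broadly expressed form of subunit VIIa, had 64.6 to 84.9 CPM in control and 82.5 to 109 CPM in MR libraries, which overlap. Cox4i1 was at 0.40 ± 0.17, Cox6a1 at 0.32 ± 0.11, Cox8a at 0.31 ± 0.16 and Cox7a2l at 0.32 ± 0.20 on the log2 scale, and the groups of each overlapped.

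In complex V of MC38, Atp5mpl, a small subunit of the membrane part, had 39.4, 39.15, 45.6 and 40.6 CPM in control and 85.9, 54.0, 55.2 and 58.4 CPM in MR libraries. The groups did not overlap, MR replicate 1 stood apart from the other MR libraries, and the log2 fold change was 0.62 ± 0.15 (SE, edgeR adjusted p = 0.255). Atp5k, subunit e, which helps the synthase to dimerize, had 19.8, 24.9, 20.8 and 21.1 CPM in control and 53.9, 45.5, 30.1 and 24.2 CPM in MR libraries. Its log2 fold change was 0.83 ± 0.23 (SE, edgeR adjusted p = 0.256), and MR replicate 4 lay within the control range. Atp5b had 1535, 1539, 1687 and 1396 CPM in control and 1680, 1476, 1408 and 1352 CPM in MR libraries, a log2 fold change of -0.06 ± 0.10. Atp5a1 was at 0.14 ± 0.16 and Atp5e, the small epsilon subunit of the same F1 head, at 0.47 ± 0.19. Atp5g1, Atp5g2 and Atp5g3 were at 0.17 ± 0.10, 0.37 ± 0.20 and 0.33 ± 0.11, and the groups of Atp5g3 did not overlap.

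The promoters of the member with the lowest p in MC38 in each complex, among the 66 members with a RefSeq window, and of Atp5b for contrast are shown from 150 bases before to 30 bases from the RefSeq start, 5′ to 3′ on the gene's strand (GRCm38.p6), because genes of the chain are known targets of the factors NRF1, GABPA (an ETS factor), YY1 and Sp1. Capitals mark matches to CGCATGCG (NRF1), CCGGAAG (ETS), AAGATGG (YY1), GGGCGG (Sp1) or CACGTG (E-box) on either strand.
Ndufa11 (chr17:56717612-56717791, plus strand): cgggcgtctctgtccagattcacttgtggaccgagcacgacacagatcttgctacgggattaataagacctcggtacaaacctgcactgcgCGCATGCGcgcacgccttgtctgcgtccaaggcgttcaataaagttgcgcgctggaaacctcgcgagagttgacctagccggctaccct
Uqcrh (chr4:116075041-116075220, minus strand): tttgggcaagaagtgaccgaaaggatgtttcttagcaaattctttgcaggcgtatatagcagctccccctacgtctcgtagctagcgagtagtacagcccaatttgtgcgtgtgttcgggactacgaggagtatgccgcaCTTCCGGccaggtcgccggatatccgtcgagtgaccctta
Cox7b (chrX:106015550-106015729, plus strand): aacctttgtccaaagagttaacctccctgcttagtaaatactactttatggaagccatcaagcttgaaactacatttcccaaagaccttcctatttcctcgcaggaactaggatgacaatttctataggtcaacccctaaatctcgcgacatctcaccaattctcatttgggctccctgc
Atp5k (chr5:108434370-108434549, minus strand): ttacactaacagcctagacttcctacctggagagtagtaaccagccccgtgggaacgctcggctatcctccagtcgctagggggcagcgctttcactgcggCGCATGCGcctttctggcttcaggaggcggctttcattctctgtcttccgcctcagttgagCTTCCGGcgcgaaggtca
Atp5b (chr10:128083157-128083336, plus strand): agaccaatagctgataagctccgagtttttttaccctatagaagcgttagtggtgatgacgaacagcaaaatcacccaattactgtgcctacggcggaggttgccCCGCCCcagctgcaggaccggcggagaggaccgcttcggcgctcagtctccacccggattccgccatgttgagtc

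In whole windows of 250 bases before to 50 bases from the start, the NRF1 letters were in 8 of 65 member windows (12.3%) against 3.69% of 11052 windows of genes tested in MC38. The YY1 letters were in 10 (15.4%) against 7.16% and the ETS letters in 14 (21.5%) against 17.8%. The Sp1 letters were in 26 (40%) against 62.8%, and CACGTG in 6 (9.23%) against 10%. The median share of G and C was 57.3% in member windows and 60.7% in all windows. In MC38, members with and without the letters had median log2 fold changes of 0.41 and 0.34 for NRF1, 0.44 and 0.34 for ETS and 0.38 and 0.34 for YY1. For Sp1 they were 0.34 and 0.37, and for the E-box 0.27 and 0.35. A match describes these letters only and shows no binding.

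Transcript length moved with the MC38 result. Among genes that are not members, the median log2 fold change was 0.27 for transcripts up to 600 nt, 0.23 from there to 1000 nt, 0.14 up to 2000 nt, 0.01 up to 4000 nt and -0.14 above 4000 nt. Members had a higher median than other genes in each class: 0.47 (25 members), 0.36 (30), 0.21 (19), 0.18 (4) and 0.17 (1). The 1 member over 4000 nt is Atp5g1, whose assigned 4715 nt exceed its RefSeq gene span (chr11:96072793-96075694), so its length and class are uncertain. Over the 79 members, the log2 fold change and log10 transcript length correlated at r = -0.55, a description across genes of the same libraries. After each library's trend with transcript length was removed, 73 members had a higher mean with MR (Ndufs1 turned from lower to higher and Atp5d from higher to lower), the median log2 fold change was 0.14 and 16 had an unadjusted p under 0.05, against 10.2% of all genes. With the length of each gene's shortest coding transcript in place of the listed one, an unplanned setting, the median was 0.32. After the correction by listed length, the small ATP synthase subunits had the highest median of the role groups, 0.33, and the F1 head had 0.01.

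**Figure D3:**
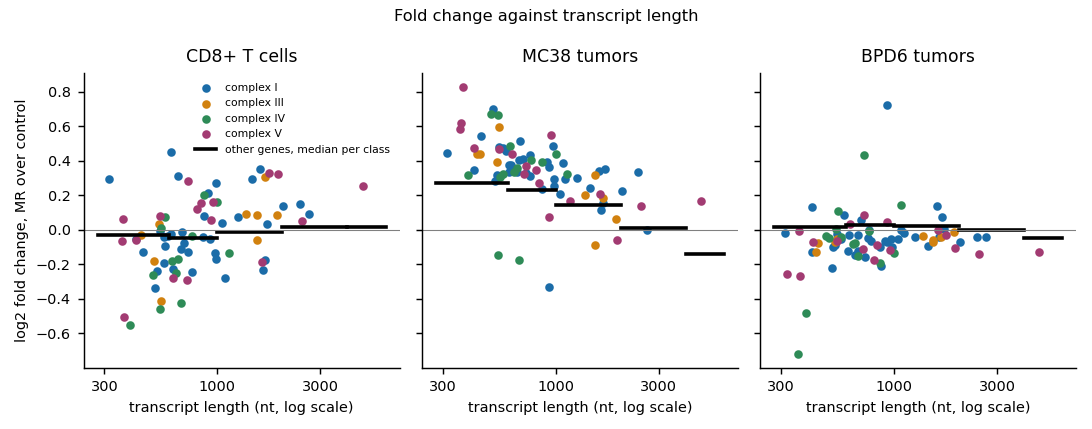
Log2 fold change of MR over control (y axis) against the length assigned to the listed transcript (x axis, log scale) for members by complex. Black lines are medians of other genes in 5 length classes. In MC38 both the members and the black lines fall with length, from 0.27 to -0.14 for other genes; Cox8b in MC38 (1.35) is not drawn.

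Other groups of housekeeping genes also had higher medians with MR in MC38. The median log2 fold change was 0.30 for 95 cytosolic ribosomal protein genes (88 higher), 0.26 for 38 proteasome subunits (34 higher) and 0.19 for 78 mitochondrial ribosomal protein genes (74 higher). After the length correction these medians were 0.10, 0.10 and 0.05, against 0.14 for the members. An unadjusted p under 0.05 was reached by 14 ribosomal (1 of them lower), 9 proteasome and 10 mitochondrial ribosomal genes, or 14.7%, 23.7% and 12.8%, against 14.1% of all genes. No test of the difference between groups was made.

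The levels by library show how much of this is spread within diet groups. For each gene, the log2 CPM in a library was set against its mean over all libraries of the material, and the median over members was taken. In MC38 the control libraries had medians of -0.27, -0.09, -0.03 and -0.25 and the MR libraries 0.53, 0.16, 0.04 and -0.11. MR replicate 4 thus lay below 2 control libraries, and in MR replicate 1 78 of 79 members were above their own mean. Without MR replicate 1 the median log2 fold change of the members was 0.21. In the same libraries, other genes up to 1000 nt minus those over 4000 nt differed by -0.31, -0.06, -0.05 and -0.29 in control and 0.60, 0.15, 0.11 and -0.11 in MR, in the same order as the members. Cytosolic ribosomal protein genes had median deviations of -0.26, -0.04, 0.11 and -0.39 in control and 0.64, -0.08, 0.15 and -0.15 in MR libraries.

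**Figure D4:**
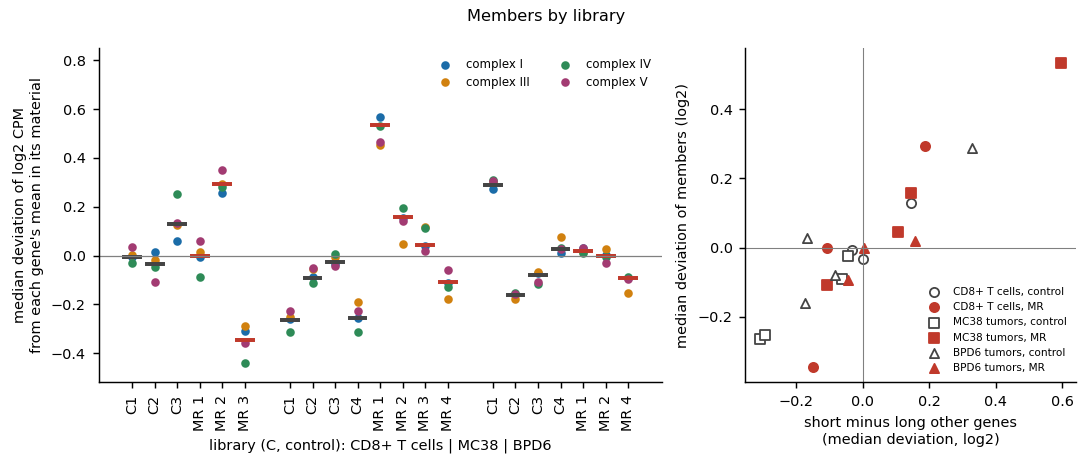
Left, median deviation of members from each gene's mean in its material (log2, y axis) by library, with points for complexes I, III, IV and V and a bar for all members (dark, control; red, MR). Right, the same median (y axis) against the difference between short and long genes that are not members (x axis, log2); the MC38 MR library at 0.53 is the highest in both.

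In CD8+ T cells, 3 of 76 tested members had an unadjusted p under 0.05 in edgeR, against 17.3% of 12348 genes. None passed after adjustment, against 1.41% of all genes, and DESeq2 and limma-voom also called 0. Groups did not overlap for 4 members (Atp5h, Atp5k, Ndufv1 and Ndufv3), against 22.4% of all genes, and 34 members had a higher mean with MR, against 50.4%. With all libraries kept, the unadjusted count and the count without overlap were below the shares of all genes. The count after adjustment and the share of higher means (44.7%) were near those of all genes. The count with an unadjusted p under 0.05 was 18 of 77 without MR replicate 2 and 12 of 76 without MR replicate 3. Leaving out control replicate 3 gave 1, and leaving out MR replicate 1 gave 0. It was 6 with library totals only and 5 with the length correction. The median log2 fold change was -0.04 for complex I, 0.03 for complex III, -0.17 for complex IV and 0.06 for complex V.

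Atp5k had 26.5, 27.8 and 30.2 CPM in control and 17.6, 25.8 and 16.1 CPM in MR CD8+ T cell libraries. All MR libraries were lower, with a log2 fold change of -0.51 ± 0.20 (SE, edgeR adjusted p = 0.193). Cox7c, a small subunit of complex IV, had 114, 149 and 156 CPM in control and 87.2, 132 and 85.4 CPM in MR libraries, a log2 fold change of -0.46 ± 0.19. Ndufv3, an accessory subunit of the NADH-oxidizing part of complex I, had 27.0, 27.5 and 24.9 CPM in control and 37.0, 33.9 and 30.6 CPM in MR libraries. It was the one of the 3 with a higher mean with MR, at 0.35 ± 0.16 (SE, edgeR adjusted p = 0.275).

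Other members named by complex had larger p-values. Uqcrh was at -0.41 ± 0.21 and Uqcrc1 at 0.30 ± 0.15 on the log2 scale. Ndufa3 was at -0.34 ± 0.17, Atp5h, a stalk subunit, at -0.28 ± 0.14 and Cox5a at -0.25 ± 0.18. Ndufv1 had 80.1, 80.5 and 81.0 CPM in control and 71.4, 68.0 and 74.8 CPM in MR libraries, lower in all 3 with a log2 fold change of -0.17 ± 0.13. Atp5b was at 0.32 ± 0.18, and Atp5g1, Atp5g2 and Atp5g3 at 0.26 ± 0.19, 0.28 ± 0.17 and -0.29 ± 0.20. None of these members passed the test.

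The members' levels differed between the MR CD8+ T cell libraries. The median deviation of the members was -0.00, 0.29 and -0.35 in MR replicates 1, 2 and 3, and -0.01, -0.03 and 0.13 in the control libraries. In MR replicate 2, 69 of 76 members were above their own mean, and in MR replicate 3, 4 were. Without MR replicate 2 the median log2 fold change was -0.19, and Cox7c passed the test (log2 fold change -0.69). Without MR replicate 3 the median was 0.14. Without control replicate 3 it was 0.01 with 45 members higher. With all libraries kept, the sign turned with the length correction, to 0.02 (40 members higher). It also turned when libraries were scaled by their totals only, to 0.03 (47 members higher). With the length of each gene's shortest coding transcript in the correction, an unplanned setting, the median stayed negative, at -0.02 (34 members higher). In the CD8+ T cell libraries all 5 B cell markers had a lower mean with MR (summed 46.9 to 254 CPM in control and 58.7 to 101 CPM in MR libraries), as did 4 of 5 NK cell markers (385 to 496 and 310.0 to 411 CPM) and the 3 tested red cell markers (28.6 to 61.5 and 9.07 to 25.2 CPM). Their part in the result was not tested.

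In BPD6 tumors no member had an unadjusted p under 0.05 in edgeR, against 1.85% of 13978 genes. None passed after adjustment, against 0% of all genes, and DESeq2 and limma-voom called 0. No member's groups were free of overlap, against 3.4% of all genes. A higher mean with MR was found for 15 of 79 members, against 48.4% of all genes, and all 9 genes of complex III had a lower mean. Low counts of higher means were also found for mitochondrial ribosomal protein genes (14 of 78) and proteasome subunits (6 of 38). Cytosolic ribosomal protein genes went the other way, with 85 of 96 higher. The median log2 fold change was -0.05 for complex I, -0.06 for complex III, -0.05 for complex IV and -0.09 for complex V.

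The members with the lowest p in BPD6 had small differences. Cox5b, which binds zinc in complex IV, had 116, 86.3, 94.6 and 100.3 CPM in control and 93.3, 86.0 and 80.8 CPM in MR libraries, which overlap (log2 fold change -0.19 ± 0.12). Atp5mpl was at -0.27 ± 0.18, Atp5j, a stalk subunit, at -0.18 ± 0.12, Ndufa3 at -0.22 ± 0.17 and Ndufb10 at -0.16 ± 0.12. Uqcr10 was at -0.13 ± 0.15 and Uqcr11 at -0.07 ± 0.13. Cox7a2l had the opposite sign, at 0.14 ± 0.10. In control replicate 1, 75 of 79 members were above their own mean over the BPD6 libraries, with a median deviation of 0.29. Without that library the median log2 fold change was 0.04 and 55 members had a higher mean with MR. The direction in BPD6 rested on that library.

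The diet difference was compared between the tumor models with an interaction term (model by diet) fitted to 14257 genes. The median difference, BPD6 minus MC38, was -0.41 on the log2 scale for members, against -0.03 for all genes, and 75 of 79 members were on the negative side. An unadjusted p under 0.05 was reached by 29 members, against 5.2% of all genes. This count was 14 with the length correction, 18 over genes with the same transcript in both tables, 17 without MC38 control replicate 1, MC38 MR replicate 1, BPD6 control replicate 1 or BPD6 MR replicate 4, 18 without MC38 control replicate 4 and 19 without MC38 MR replicate 2. None passed after adjustment, against 0% of all genes, with a lowest adjusted p of 0.849. Atp5mpl had the lowest p, with a difference of -0.89 ± 0.25 (SE), followed by Ndufa3 at -0.92 ± 0.27, Atp5k at -1.09 ± 0.34 and Cox7b at -0.58 ± 0.18. The median difference was -0.20 with the length correction and -0.25 without MC38 MR replicate 1.

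Tissue-limited isoforms were high in single libraries of either diet. Cox6a2, Cox7a1 and Cox8b are the heart and skeletal muscle forms of subunits VIa, VIIa and VIII of complex IV. In BPD6, Cox6a2 had 4.99, 4.88, 2.35 and 23.8 CPM in control and 2.14, 18.7 and 3.54 CPM in MR libraries (replicates 1, 2 and 4). Cox8b had 0.976, 1.04, 0.0547 and 7.04 CPM in control and 0.357, 3.80 and 0.00 CPM in MR libraries. The high values of both were in control replicate 4 and MR replicate 2, the libraries in which 12 skeletal muscle genes summed to 7613 and 5269 CPM, against 205 to 1317 CPM in the other BPD6 libraries.

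In MC38, Cox6a2 had 10.6, 14.1, 26.3 and 6.91 CPM in control and 15.9, 19.5, 10.4 and 5.23 CPM in MR libraries, and Cox8b 0.00, 0.106, 2.83 and 0.00 CPM and 0.286, 4.17, 2.19 and 0.588 CPM. Muscle genes summed to 3055 CPM in control replicate 3 and 3400 CPM in MR replicate 2 and to 20.1 to 199 CPM in the others. Cox6a2 was highest in those libraries, and it was also at 15.9 CPM in MR replicate 1, where muscle genes were at 48.96 CPM. Cox8b in MR replicate 3 was at 2.19 CPM with muscle genes at 20.7 CPM and fat cell genes at 423 CPM. Cox7a1 ran from 0.590 to 3.80 CPM over the tumor libraries. Within BPD6 its highest values were in the same muscle-rich libraries, 3.09 CPM in control replicate 4 and 1.37 CPM in MR replicate 2. In MC38 it was highest in MR replicate 2, at 3.80 CPM. Next came MC38 MR replicate 1 at 3.34 CPM, where muscle genes were at 48.96 CPM, above the muscle-rich control replicate 3 at 2.89 CPM.

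**Figure D5:**
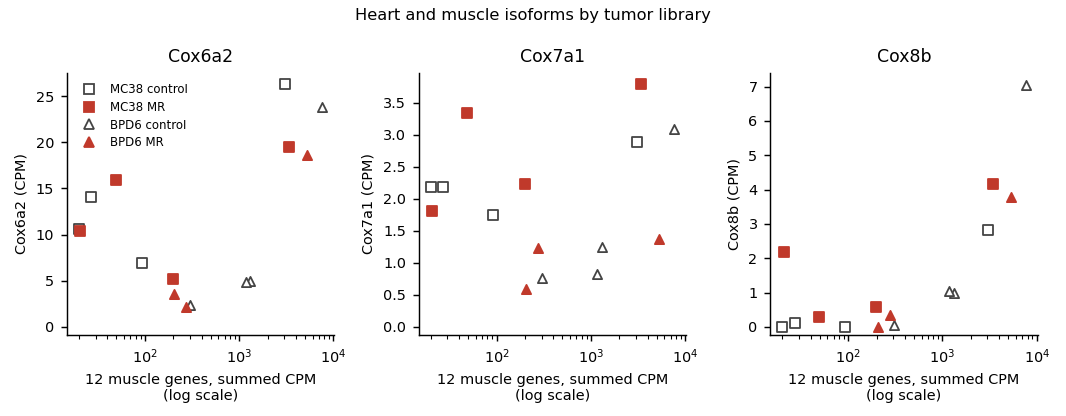
CPM of Cox6a2, Cox7a1 and Cox8b (y axes) against the summed CPM of 12 skeletal muscle genes (x axis, log scale) in each MC38 (squares) and BPD6 (triangles) library, open for control and filled for MR. The 4 libraries at 3055 CPM or more of muscle genes hold the 4 highest values of Cox6a2, 18.7 to 26.3 CPM.

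Ndufa4l2, a paralog of Ndufa4 known to be induced by low oxygen and marked in pericytes, had 2.71, 3.53, 9.73 and 1.55 CPM in control and 13.6, 4.54 and 3.54 CPM in MR libraries of BPD6. Its highest values were in control replicate 3 and MR replicate 1, where the 7 fibroblast and pericyte genes summed to 7657 and 6339 CPM, against 2448 to 3503 CPM in the other libraries. Keratinocyte genes were also highest there, at 407 and 1388 CPM. In MC38, Ndufa4l2 had 3.596 to 10.3 CPM in control and 2.002 to 9.63 CPM in MR libraries. Cox4i2, the lung form of subunit IV, was at 0.160 to 1.28 CPM in BPD6 and 0.107 to 0.930 CPM in MC38, at most 0.365% of the summed CPM of Cox4i1 and Cox4i2 in any tumor library. The part of muscle, fat or stromal cells in these values was not tested.

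Other genes of the pathway were read from lists of assembly factors, complex II, electron carriers, nucleotide carriers and regulators. Of 88 tested genes on these lists 1 passed the test in CD8+ T cells (1.14%, against 1.41% of all genes), Lyrm7, which guards the Rieske protein before its insertion into complex III. It had 3.599, 6.19 and 3.36 CPM in control and 15.1, 11.5 and 9.73 CPM in MR libraries, with no overlap and a log2 fold change of 1.46 ± 0.31 (SE, edgeR adjusted p = 0.0301). Leaving out control replicate 1 gave an adjusted p of 0.102 and leaving out MR replicate 1 one of 0.265, and it ran from 7.42e-04 to 0.265 over all alternatives. Of the 6 complex III assembly factors, 3 had a higher and 3 a lower mean with MR, among them Uqcc3 at -0.41 ± 0.15.

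No gene of the other lists passed the test in CD8+ T cells, and none of any list did in MC38 or BPD6. Cycs, the soluble cytochrome c, had in CD8+ T cells 48.2, 43.9 and 56.6 CPM in control and 43.5, 33.0 and 32.6 CPM in MR libraries, lower in each (log2 fold change -0.45 ± 0.17). Complex I assembly factors had 10 of 15 higher, with 3 at an unadjusted p under 0.05 (Acad9, Ecsit and Ndufaf7, 0.44 to 0.45), which is 20% of the list against 17.3% of all genes. In MC38, Uqcc3 was at 0.56 ± 0.13 and Atpif1, the inhibitor of the ATP synthase, at 0.42 ± 0.18, whereas the 4 subunits of complex II had a median of 0.22 and the mitochondrial transcription and biogenesis genes one of -0.11. After the length correction these medians were 0.07 and 0.00. Complex II subunits in BPD6 had a median of -0.09, with 4 of 4 lower.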

How the data were processed

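Per the labels' protocols, libraries were made from poly-T purified RNA with random hexamers; strand is not stated. The deposited estimated counts per gene (multiples of 0.5; 41.0% to 46.8% of values were not whole) were made on GRCm38 (mm10), per the submitters' processing notes; aligner and counter are not stated there. They were rounded to whole numbers. The log2 fold change and adjusted p-value columns of the authors' deposited tables were used only where named. The 21 per-sample columns without a stated unit were not used.

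Genes were filtered with filterByExpr, normalized by TMM and tested with edgeR 4.0.16 (quasi-likelihood, R 4.3.3) within each material over all genes, with Benjamini-Hochberg adjustment at 0.05. DESeq2 1.42.0, limma-voom (limma 3.58.1), other scalings, no filter, a replicate block and each replicate left out were alternatives. The length correction removed a lowess curve (span 0.3) of log2 deviation over log10 transcript length (GENCODE M21) per library, with a prior count of 2. A gene's length was that of the longest GENCODE transcript matched to its listed RefSeq transcript, or else the median of its coding transcripts. CPM are counts scaled to a library's total over the filtered genes, adjusted by its TMM factor. Within-group deviations of same-numbered replicates in CD8+ T cells and MC38 correlated at -0.28 to 0.38 over genes, which cannot show whether they were paired. On simulated counts with 200 changed genes, 88%, 77% and 51% of 2-fold changes were found in designs like CD8+ T cells, MC38 and BPD6. These counts had no trend with transcript length, their genes varied independently, and changes below 2-fold were not simulated. The recovery therefore does not apply to differences as small as those of most members.

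Named members are the 2 with the lowest p per complex in each material, the 4 with the lowest interaction p and a set of subunits and isoforms; others were named after their values were seen. Members and lists were chosen with earlier results of these data known. Promoters are from RefSeq.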

Additional observations from a re-analysis of the deposited data

Results flagged for a closer look

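Dixon's test was applied to 93 groups of 4 libraries, of named members and of the members' median deviation. Chance flags about 1 in 20, and 5 groups, all of named members, held a library far from the others. Cox8b was at 2.829 CPM in MC38 control replicate 3, against 0.00 to 0.106 CPM in the other controls, and at 7.037 CPM in BPD6 control replicate 4, against 0.0547 to 1.04 CPM. Cox6a2 was at 23.78 CPM in the same BPD6 library, against 2.35 to 4.99 CPM. Both libraries had the highest sums of skeletal muscle genes among the controls of their model, 3055 and 7613 CPM. Atp5mpl was at 85.86 CPM in MC38 MR replicate 1, against 54.0 to 58.4 CPM in the other MR libraries. Ndufa3 was at 48.05 CPM in BPD6 control replicate 1, against 31.6 to 34.2 CPM in the other controls. In these last libraries the members' median deviations, 0.53 and 0.29, were the highest of their models.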

How the results depend on the processing

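No member passed the test under any alternative in BPD6 or in the interaction. In CD8+ T cells the count ran from 0 to 1 as each replicate was left out, and in MC38 DESeq2 called 9. The CD8+ T cell median ran from -0.19 to 0.14 as each replicate was left out. The MC38 median was 0.14 with the length correction and 0.13 with the replicate block and the length correction together. It was 0.32 with the unplanned correction by shortest coding transcript and 0.21 to 0.42 as each replicate was left out. The median interaction difference was -0.20 with the length correction and -0.46 to -0.25 as each replicate was left out. The BPD6 median ran from -0.11 to 0.04, positive without control replicate 1 alone. With a replicate block the medians were -0.05 (CD8+ T cells) and 0.32 (MC38), with 0 members called, and the adjusted p of Lyrm7 was 0.0545. Whether the replicate numbers pair the samples is not stated, and the BPD6 columns gave no block. Ndufs1 in MC38 had a log2 fold change of 0.0016 with DESeq2, 0.0013 with RLE factors, 0.0009 with the length correction and -0.0924 to 0.0731 as each replicate was left out. Uqcr11 in BPD6 ran from -0.15 to 0.0034. The cause of these differences was not tested. Over 47 gene results, 726 of 747 alternative values kept their sign and side of the threshold. Of these results only Lyrm7 passed the test in the main fit, so most had little room to change side. The count does not cover the size of a difference: the MC38 median of members went from 0.34 to 0.14 with the length correction. Precision is limited by 3 or 4 libraries a group.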
